A study of Homo sapiens with 6 samples.

Results

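BTN2A2, CD276 and MICB encode surface proteins by which a cell is seen by T cells and natural killer cells. Their RNA was compared between LP-1 cells depleted of RNF5 (RNF5 KD, n = 3 libraries) and LP-1 cells that received a non-target control (Ctrl, n = 3). LP-1 is an established human multiple myeloma line, grown in both groups in RPMI-1640 with 15% serum. The labels name a short-hairpin RNA against RNF5 and give no hairpin number, no time of harvest and no statement that libraries came from separate cultures, so the spread between libraries may be technical. The 3 genes were chosen by symbol, 3 of the 1877 genes in the deposited table. The authors had selected every gene in that table on these same 6 libraries, and no listed gene had a deposited log2 fold change between -1 and 1. The values below therefore describe the 3 genes and carry no test. Values are normalized abundances on a scale that the sources used here do not give, so the level of one gene is not set against that of another.

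Butyrophilins and B7 proteins are related families of the immunoglobulin superfamily that adjust T cell responses. BTN2A2 belongs to the butyrophilins, and work in mice describes it as a restraint on T cell activation. CD276, also called B7-H3, belongs to the B7 family, is mostly described as inhibitory, and is often abundant on tumour cells. MICB works in the other direction. It is an MHC class I-like protein that presents no peptide, appears on stressed and transformed cells, and is a ligand of NKG2D, an activating receptor of natural killer cells and some T cells. Only RNA was measured here, and surface protein can also change through shedding or internalization.

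RNF5 itself, the target of the hairpin, had 95.40, 81.35 and 88.44 in KD libraries, against 1594.70, 1649.43 and 1248.30 in Ctrl libraries, which left 5.90% of the control mean. The sum over the listed genes ran between 116843 and 122079 in knockdown libraries and between 90825 and 93975 in control libraries. These sums cover selected genes alone, and the depth of each library is unknown. One library stood apart from its group. Control library 3 was the lowest of the controls in 307 of the 431 genes with both group means at least 5 (71.2%), at a median of 77.0% of the mean of control libraries 1 and 2 (quartiles 65.0% and 96.1%). All 3 genes are therefore also given without it. Control library 3 was not low throughout, since the sums of the control libraries, given above, lay close together. Listed markers of plasma cells were SDC1, CD28 and ITGB7, 3 of a list of 15, and all were present in every library. They summed to 1719 to 1812 in KD libraries, against 258 to 431 in Ctrl libraries, and each was higher in the knockdown, SDC1 2.94-fold, CD28 3.20-fold and ITGB7 4.87-fold. This is the direction of BTN2A2 and CD276. Most of each sum was ITGB7 alone, at 1665.10 to 1756.34 in KD libraries and 244.11 to 410.03 in Ctrl libraries. None of 15 T and NK cell markers and none of 10 erythroid and platelet markers was listed. Of 12 myeloid markers only CD33 was listed, at 0.61 to 1.10 in the knockdown and 0.07 to 0.55 in the control. A gene outside the table has no value here, so nothing follows about its level. The stromal list (2 of 11 listed) summed to 0.07 to 0.68 in KD libraries, against 8.42 to 24.9 in Ctrl libraries, with SPARC at 0 in knockdown library 3. Most of the sum in Ctrl libraries was SPARC alone, at 7.70 to 24.29. The B cell list (BLK and CD72, 2 of 10) summed to 18.1 to 19.7 in KD libraries, against 10.6 to 13.4 in Ctrl libraries. Its members went opposite ways, BLK with 15.5 ± 0.821 in the knockdown and 4.37 ± 0.853 in the control, and CD72 with 3.55 ± 0.502 in the knockdown and 7.49 ± 0.649 in the control (SD, n = 3 each). CLDN4, 1 of 8 epithelial markers, had 1.29 to 1.48 in KD libraries, against 1.85 to 3.17 in Ctrl libraries. The part of these lists in the values that follow was not tested.

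BTN2A2 was higher after RNF5 knockdown, with no overlap between the groups. Lack of overlap was shared by 93.2% of the 1877 listed genes, so it is not particular to any of the 3 genes. It had 49.16, 56.82 and 53.41 in KD libraries, against 13.26, 13.44 and 6.70 in Ctrl libraries. The lowest knockdown value was 3.66 times the highest control value. The means were 53.1 ± 3.84 in the knockdown and 11.1 ± 3.84 in the control (SD, n = 3 each), a 4.77-fold difference. On the log2(value + 1) scale, which understates differences of low values, the log2 fold change was 2.21, with SDs of 0.10 among knockdown and 0.52 among control libraries. Control library 3 stood at 50.2% of the mean of the other controls, and without it the difference was 3.98-fold. In the authors' deposited table the log2 fold change of BTN2A2 was 2.07. In bulk RNA such as this, a change in the number of cells that carry a transcript and a change in RNA per cell cannot be told apart.

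CD276 was also higher in every knockdown library. It had 19.99, 20.33 and 23.14 in KD libraries, against 10.12, 10.02 and 5.21 in Ctrl libraries. The groups did not overlap, as in most listed genes, and the lowest knockdown value was 1.98 times the highest control value. The means were 21.2 ± 1.73 in the knockdown and 8.45 ± 2.81 in the control (SD, n = 3 each), a 2.50-fold difference with a log2 fold change of 1.28 on the log2(value + 1) scale. The SDs on that scale were 0.11 among knockdown and 0.48 among control libraries. Control library 3 was again the low one, at 51.7% of the mean of the other controls, and without it the difference was 2.10-fold. The authors' deposited table gave CD276 a log2 fold change of 1.22.

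MICB went the other way and was lower after RNF5 knockdown, again without overlap, as in most listed genes. It had 21.32, 21.83 and 22.02 in KD libraries, against 43.16, 41.09 and 27.17 in Ctrl libraries. The knockdown libraries were nearly equal, while control library 3 lay between the other controls and the knockdown. The lowest control value was 1.23 times the highest knockdown value, the narrowest gap of the 3 genes. The means were 21.7 ± 0.362 in the knockdown and 37.1 ± 8.70 in the control (SD, n = 3 each), so that the knockdown held 58.5% of the control level, or 51.6% of the mean of control libraries 1 and 2. The log2 fold change on the log2(value + 1) scale was -0.72, with SDs of 0.02 among knockdown and 0.36 among control libraries, and -0.92 without control library 3. The authors' deposited table gave MICB a log2 fold change of -1.07, just past the limit of 1 that the listed genes share. The log2 ratio of the group means, -0.77, was not past it. Over those 431 genes, this log2 ratio exceeded the deposited one by a median of 0.17.

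**Figure D1:**
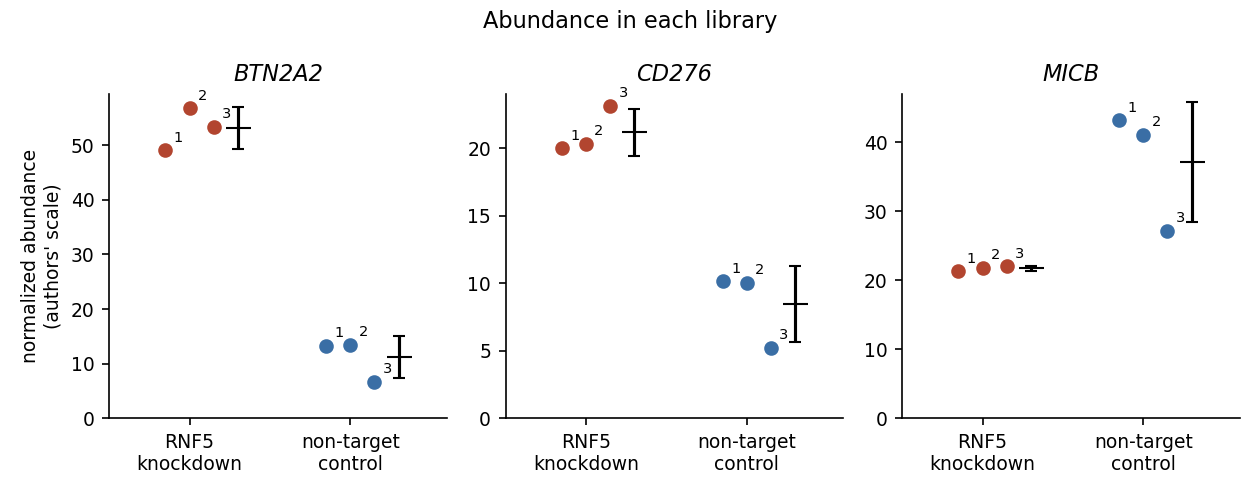
Normalized abundance (y axis, authors' scale, starting at 0) of BTN2A2, CD276 and MICB in the 3 RNF5 knockdown libraries (red, left) and the 3 control libraries (blue, right), with library numbers beside the points. Bars give mean ± SD of 3 libraries. BTN2A2 and CD276 sit higher in all knockdown libraries and MICB lower, and control library 3 is the lowest control for each gene.

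The spread within groups was uneven. The coefficient of variation among knockdown libraries was 7.22% for BTN2A2, 8.17% for CD276 and 1.67% for MICB, beside a median of 8.81% over the 431 genes. Among control libraries it was 34.5% for BTN2A2, 33.2% for CD276 and 23.4% for MICB, each above the median of 20.6%. Leaving out control library 3 drew BTN2A2 and CD276 closer to the control and moved MICB farther from it.

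Ratios between the 3 genes within one library do not depend on a scaling factor shared by all genes of that library. The sources used here do not say whether the normalization used only such factors. The ratio of BTN2A2 to MICB was 2.31, 2.60 and 2.43 in KD libraries, against 0.307, 0.327 and 0.247 in Ctrl libraries. It averaged 2.44 ± 0.149 in the knockdown and 0.294 ± 0.0419 in the control (SD, n = 3 each), an 8.33-fold difference. BTN2A2 thus stood higher relative to MICB in each knockdown library than in any control library. This was fixed once BTN2A2 was higher and MICB lower, each without overlap. The same holds for the ratio of CD276 to MICB, so nothing is read from either order. The ratio of CD276 to MICB was 0.938, 0.931 and 1.05 in KD libraries, against 0.234, 0.244 and 0.192 in Ctrl libraries, a 4.36-fold difference. The ratio of BTN2A2 to CD276 was 2.46, 2.79 and 2.31 in KD libraries, against 1.31, 1.34 and 1.29 in Ctrl libraries. In control library 3 both of these genes were about equally low, and their ratio averaged 1.31 ± 0.0277 across the controls (SD, n = 3). The ratios mix gene lengths and an unknown scale, so their level is not read, only how they differ between groups. The exons of BTN2A2 and MICB differ in length (6398 and 2798 bases), and length moved with direction in this table. Whether length adds to the group differences in the ratios was not tested.

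**Figure D2:**
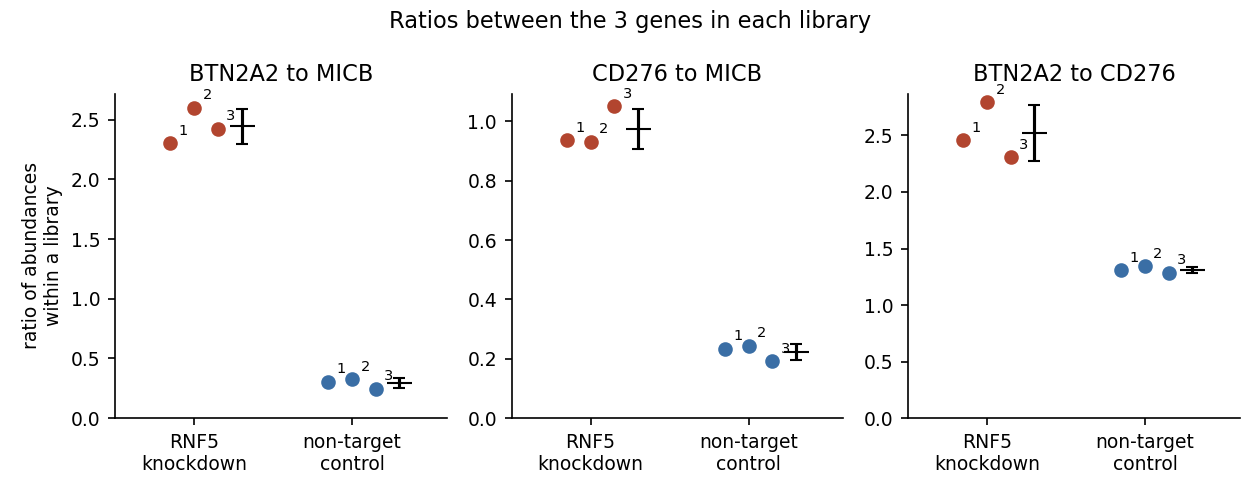
Ratio of 2 genes' abundances within each library (y axis, no unit, starting at 0) for BTN2A2 to MICB, CD276 to MICB and BTN2A2 to CD276, in the knockdown (red, left) and control (blue, right) libraries, with mean ± SD of 3 libraries. Every knockdown ratio exceeds every control ratio, which for the ratios to MICB follows from the opposite directions without overlap. The control ratios of BTN2A2 to CD276 lie between 1.29 and 1.34 although control library 3 is low for both genes.

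Promoter windows of RefSeq (GRCh38.p14), each 300 bases from 250 before to 50 after an annotated start, were present for MICB and CD276. BTN2A2 is named only. MICB is shown because the promoters of the MIC genes are known to carry heat shock elements, and heat shock genes were lower in the same libraries. Capitals mark the heat shock element core GAANNTTC, searched on both strands, on which it reads the same. The MICB window lies at chr6:31497895-31498194, plus strand.

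MICB: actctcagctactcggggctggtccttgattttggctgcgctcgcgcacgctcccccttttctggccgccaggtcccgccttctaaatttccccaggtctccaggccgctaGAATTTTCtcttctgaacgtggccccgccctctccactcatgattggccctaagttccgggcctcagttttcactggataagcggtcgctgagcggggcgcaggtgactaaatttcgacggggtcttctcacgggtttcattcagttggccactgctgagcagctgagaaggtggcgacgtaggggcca

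The core occurred once in the MICB window, at base 112 of 300. Its paralogue MICA, which is not in the deposited table, holds the same 8 letters in its own window (chr6:31403345-31403644, plus strand), shown here with the matching 30 bases of MICB.

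MICB: ccaggccgctaGAATTTTCtcttctgaacg
MICA: ccagcccactgGAATTTTCtcttccaagcg

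The core GAANNTTC was found in 6.77% of 35116 promoter windows, and in at least 1 window of 8.21% of 27305 genes. Among the heat shock genes of the deposited table, 17 had a window and 11 of them held the core, among them HSPA1L, HSPA6, HSPB1 and DNAJB1. The other phase, TTCNNGAA, did not occur in the MICB window and occurred in 9.46% of genes. A match describes letters in a window and is not a binding site, and whether the core bears on the level of MICB was not tested.

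CD276 has 2 windows, shown here by the first as the promoter of the other gene with an entry. It lies at chr15:73684133-73684432, plus strand, and capitals mark the GC box GGGCGG on either strand, overlapping matches joined.

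CD276: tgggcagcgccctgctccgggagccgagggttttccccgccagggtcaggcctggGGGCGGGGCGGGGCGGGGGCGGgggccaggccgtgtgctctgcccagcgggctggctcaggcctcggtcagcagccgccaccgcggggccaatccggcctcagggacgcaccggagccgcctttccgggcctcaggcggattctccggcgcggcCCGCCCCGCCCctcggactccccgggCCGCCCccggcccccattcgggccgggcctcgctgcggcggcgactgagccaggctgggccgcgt

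This window held 7 GC boxes, a number that 1.5% of all windows reached, and 80.3% of its bases were G or C, against 59% in the MICB window and a median of 58.7%. The second CD276 window held 2 GC boxes, a number that 26.7% of all windows reached, and 76% of its bases were G or C. Several motifs were searched in each window, and MICB and CD276 are marked for different ones. Neither phase of the heat shock core occurred in either CD276 window, and the MICB window held 1 GC box.

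Within the table the 3 genes took different places. For the comparison across all genes, limma was fitted on log2(value + 1) over the 1290 genes that reached 1 in 3 libraries or more. All 3 genes passed this filter. It called 55.7% of the fitted genes higher and 42% lower in the knockdown (adjusted p under 0.05), and BTN2A2 and CD276 were among those called higher and MICB among those called lower. The groups did not overlap in 93.2% of the 1877 listed genes, BTN2A2, CD276 and MICB included. Since the table was made of genes picked on this contrast, nothing is read from these counts. By size on the log2(value + 1) scale, BTN2A2 ranked 15 among the 726 fitted genes with a positive fold change, CD276 ranked 243 among the same genes, and MICB ranked 442 among the 564 with a negative one. In the authors' deposited table BTN2A2 ranked 127 and CD276 ranked 621 of 924 genes listed as higher, and MICB ranked 864 of 953 listed as lower.

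**Figure D3:**
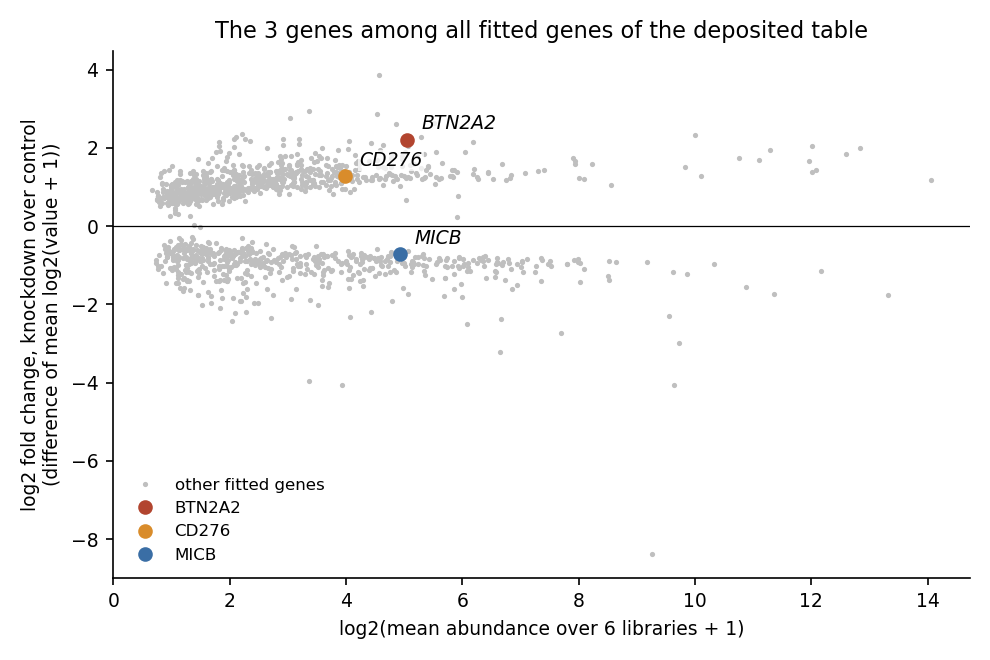
Log2 fold change of knockdown over control (y axis, difference of mean log2(value + 1)) against log2 of the mean abundance over 6 libraries plus 1 (x axis) for the 1290 fitted genes, with BTN2A2 (red), CD276 (orange) and MICB (blue) marked. BTN2A2 lies near the upper edge at 2.21, CD276 at 1.28 lies in the upper band, and MICB at -0.72 lies at the inner edge of the lower band.

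Gene length moved with direction in this table. The annotated exons (GENCODE 29) of fitted protein-coding genes covered a median of 5320.5 bases for the 404 genes with a positive fold change and of 4017 bases for the 465 with a negative one. The exons of BTN2A2 covered 6398 bases, those of CD276 5542 and those of MICB 2798. The trend on length was removed and the median of these coding genes was added back. The log2 fold change was then 1.48 for BTN2A2, 0.57 for CD276 and -1.04 for MICB. Each moved down, from 2.21, 1.28 and -0.72, MICB too although its exons are shorter than both medians. The level of these values depends on the median added back, in a table without small changes. They are not read as corrected for length. Whether length affected the measurement was not tested.

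The table lists 6.07% of the 20056 protein-coding genes of the RefSeq annotation, so most members of any family have no value here, and nothing is read from how many relatives are listed. Of 10 genes of the B7 family, CD276 alone was listed, and CD274, PDCD1LG2, CD80 and CD86 have no value here. Of 8 NKG2D ligands, MICB alone was listed. Of 14 butyrophilin genes, BTN2A2 and the pseudogene BTN2A3P were listed, the pseudogene under 2 identifiers. The more abundant BTN2A3P entry (ENSG00000291104) had 2.55, 3 and 2.64 in KD libraries, against 0.77, 0.55 and 0.56 in Ctrl libraries, and rose in the fit (log2 fold change 1.20, SE 0.15, limma adjusted p = 3.12e-05). The other entry (ENSG00000124549) was too low for the fit, at 0.940 ± 0.0265 in the knockdown and 0.167 ± 0.0757 in the control (SD, n = 3 each). Of the 7007 distinct 50-base words in BTN2A2 transcripts, 21 also occurred in BTN2A3P. The annotation used for this search had no match for the more abundant BTN2A3P entry. The share of BTN2A3P's own words that occur in BTN2A2 was not counted. Whether reads of BTN2A2 contributed to the BTN2A3P values was therefore not tested. Reads shared between the 2 BTN2A3P entries were not examined. Because the authors selected these genes on the same libraries, none of the adjusted p-values here is independent evidence of a change.

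Other ligands of T cell and natural killer cell receptors went both ways. Of 26 genes, 3 were listed. NECTIN1, an adhesion molecule bound by the lymphocyte receptor CD96, rose to 8.36 ± 0.780 in the knockdown, against 4.14 ± 1.59 in the control (SD, n = 3 each; limma adjusted p = 0.00358). LGALS3, a secreted galactose-binding lectin, fell to 15.2 ± 5.16 in the knockdown, against 28.5 ± 2.79 in the control (SD, n = 3 each; limma adjusted p = 0.00229). ADGRG1 was below the filter, at 0.11, 0.03 and 1.17 in KD libraries, against 0.41, 1.33 and 0.38 in Ctrl libraries, which overlapped. None of 18 ligands of the TNF superfamily was listed.

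Antigen presentation was represented by single genes. Of 25 genes of MHC class I and its peptide loading, HLA-G and HFE were listed. HLA-G, a non-classical class I molecule, fell to 0.587 ± 0.124 in the knockdown, against 1.47 ± 0.338 in the control (SD, n = 3 each; limma adjusted p = 0.00139), and its reads can be shared with other class I genes. HFE was too low for the fit and its groups overlapped, at 0.18, 0.76 and 1.24 in KD libraries, against 0.24, 0.33 and 0.10 in Ctrl libraries. Of 16 class II genes, CIITA, the master regulator of class II transcription, rose 3.29-fold to 17.9 ± 2.58 in the knockdown, against 5.43 ± 1.26 in the control (SD, n = 3 each; limma adjusted p = 4.50e-05). No class II molecule itself was listed.

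Of 15 genes of ligand shedding, 4 were listed. Metalloproteases of this kind can cut MICB and other ligands off the cell surface. ADAM8, a membrane-bound metalloprotease, had 23.33, 20.88 and 24.62 in KD libraries, against 8.79, 8.48 and 7.29 in Ctrl libraries (log2 fold change 1.38, SE 0.18, limma adjusted p = 3.92e-05). TIMP2, an inhibitor of matrix metalloproteases, rose 2.60-fold (limma adjusted p = 0.000159). MMP14, a membrane-bound matrix metalloprotease reported to shed the related MICA, fell to 1.81 ± 0.548 in the knockdown, against 4.08 ± 0.511 in the control (SD, n = 3 each; limma adjusted p = 0.00151). ADAM19 was too low for the fit, at 0.777 ± 0.139 in the knockdown and 0.127 ± 0.0416 in the control (SD, n = 3 each). ADAM10 and ADAM17, the main sheddases of many surface proteins, were not listed.

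Of 22 receptors for these ligands, 3 were listed. CD28, the co-stimulatory T cell protein that binds CD80 and CD86 and that myeloma cells can also carry, rose 3.20-fold, with 18.25, 22.18 and 19.57 in KD libraries, against 7.09, 6.54 and 5.14 in Ctrl libraries (limma adjusted p = 3.05e-05). TIGIT, an inhibitory receptor for nectin family ligands, had 2.97, 1.77 and 2.13 in KD libraries, against 0.79, 0.65 and 0.44 in Ctrl libraries (limma adjusted p = 0.000219). HAVCR2, which encodes the inhibitory receptor TIM-3, had 0.43, 1.01 and 0.61 in KD libraries, against 4.43, 1.74 and 2.20 in Ctrl libraries (limma adjusted p = 0.000877). KLRK1, which encodes NKG2D, was not listed.

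Beside MICB stand the heat shock genes, since heat shock factors are known to act on MIC promoters. Of 26 genes of that list, 18 were listed and each of the 18 fell. Their median on the log2 scale was -1.17, beside -0.72 for MICB. HSPA6, the strictly inducible HSP70, had 0.81, 0.83 and 0.50 in KD libraries, against 30.46, 30.31 and 22.34 in Ctrl libraries. In the other lists of ligands, presentation, shedding and receptors, 7 genes other than BTN2A2, CD276 and MICB rose and 4 fell among the 11 fitted. Over all fitted genes 55.7% rose and 42% fell.

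**Figure D4:**
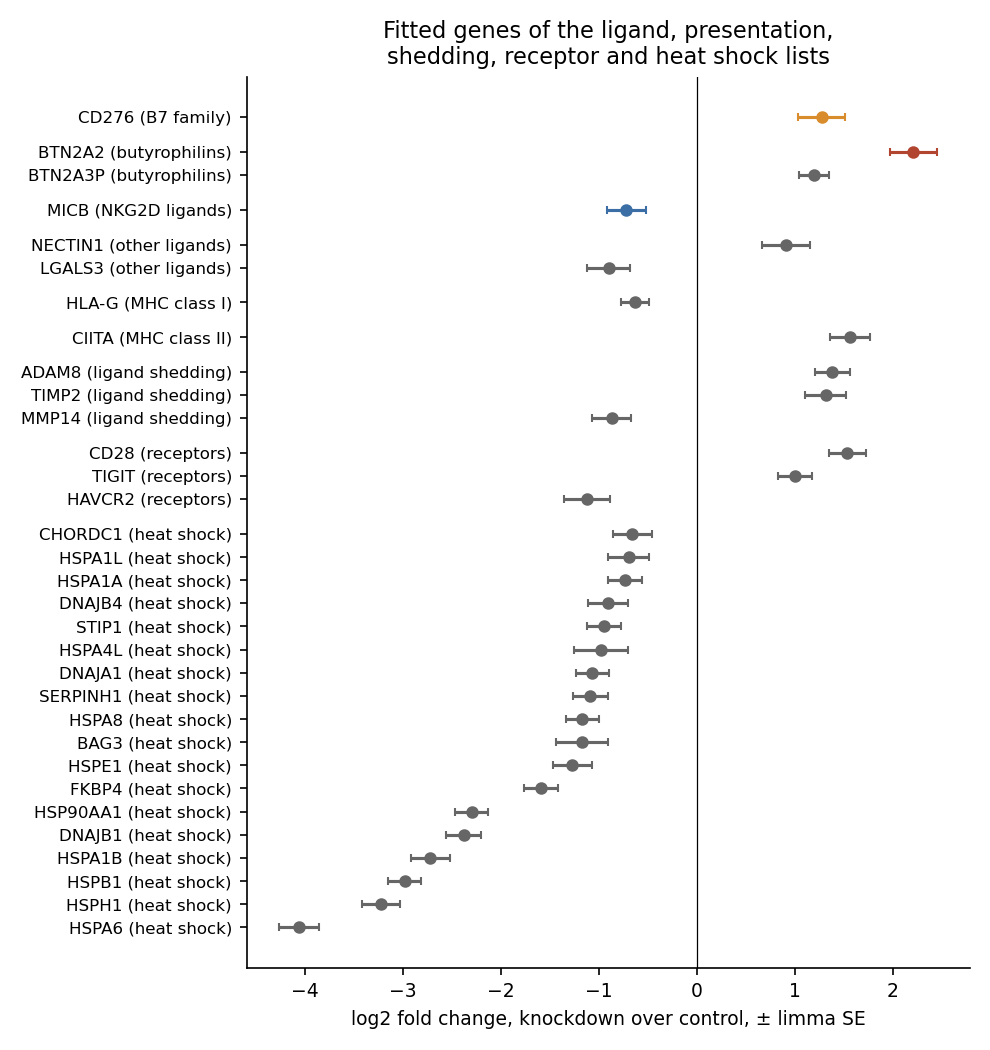
Log2 fold change of knockdown over control (x axis, difference of mean log2(value + 1), bars are the limma SE) for each fitted gene of the lists, grouped by list, with CD276 (orange), BTN2A2 (red) and MICB (blue) coloured. The heat shock genes all lie left of 0, between -0.66 for CHORDC1 and -4.06 for HSPA6, while the immune lists hold genes on both sides.

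The listed genes most like each of the 3 in pattern were found by the root mean square difference of log2(value + 1), centred on each gene's own mean, over the 6 libraries and among 699 named genes with at least 1 in every library. For BTN2A2 these were ITGB7, the beta subunit of an integrin used by myeloma cells (difference 0.095), the antisense RNA ALDH1A3-AS1 (0.106) and ATP2A3, a calcium pump of the endoplasmic reticulum (0.133), beside a median of 1.36 over all genes compared. ITGB7 had 1665.10, 1702.86 and 1756.34 in KD libraries, against 397.77, 410.03 and 244.11 in Ctrl libraries. For CD276 the genes reported are the transporter gene SLC16A13 (0.048) and TENM3, a transmembrane teneurin (0.050), beside a median of 0.912. TENM3 had 64.38, 67.63 and 72.20 in KD libraries, against 36.31, 34.91 and 18.16 in Ctrl libraries. For MICB they were YAF2, a partner of the transcription factor YY1 (0.047), HSPA1L, an HSP70 family member (0.055), and TNFRSF10B, a death receptor for TRAIL (0.064), beside a median of 0.75. HSPA1L had 3.66, 4.02 and 3.70 in KD libraries, against 7.63, 8.07 and 4.97 in Ctrl libraries. Each of these 8 genes shares the group difference by which the table was made, and all 8 were lowest among controls in library 3. They were picked for their likeness over these same libraries, and control library 3 was lowest in 71.2% of the 431 genes. Nothing is therefore read from the shared low value.

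**Figure D5:**
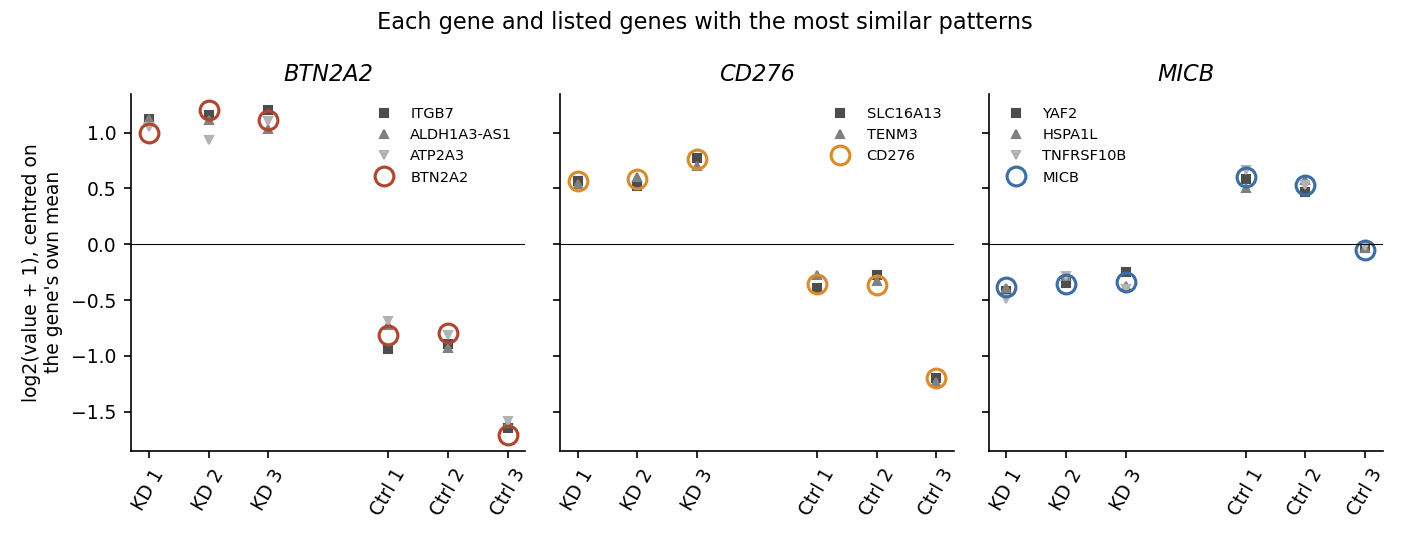
Log2(value + 1) centred on each gene's own mean (y axis) in the knockdown (KD) libraries 1 to 3 and the control (Ctrl) libraries 1 to 3 (x axis), for BTN2A2, CD276 and MICB (open coloured circles) with the most similar listed genes of each (grey; 3 for BTN2A2 and MICB, 2 for CD276). The grey points lie on or near the coloured ones in each panel, including the drop in control library 3, because the genes were picked for this likeness.

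By position, BTN2A2 and MICB lie on chromosome 6, where RNF5 also lies, and CD276 lies on chromosome 15. Of the 5 protein-coding genes on either side of BTN2A2 in the RefSeq order, among them BTN3A2, BTN3A1, BTN3A3, BTN2A1 and BTN1A1, none was listed. None of the 10 neighbours of CD276 was listed. Of the 10 neighbours of MICB, which include MICA, HLA-B and HLA-C, only NFKBIL1 was listed. NFKBIL1, which encodes an I-kappa-B-like protein, fell to 38.14, 32.90 and 38.01 in KD libraries, against 72.84, 86.11 and 66.19 in Ctrl libraries (limma adjusted p = 0.000202). Few exact 50-base words of these genes were shared with other genes, and near matches were not counted. Of the distinct 50-base words in the annotated transcripts of each gene, 2.50% for BTN2A2, 1.49% for CD276 and 2.94% for MICB also occurred in transcripts of other genes. For BTN2A2 most of these were in BTN2A1, and for MICB most were in MICA. The sources used here do not say how the authors treated such reads.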

How the data were processed

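RNA of 6 LP-1 libraries (3 RNF5 knockdown, 3 control) was sequenced. The submitters' processing notes name Bowtie 0.12.2 and hg19 without saying what each was used for. The values per library are a normalized signal deposited by the authors with 2 decimals; the sources used here give no depth, counting or normalization. The deposited fold ratio is knockdown over control, the log2 value deposited by the authors is its logarithm, and the p-value deposited by the authors has no named test. The table holds 1877 genes that the authors selected.

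From these values limma 3.58.1 (R 4.3.3) with a mean-variance trend was fitted on log2(value + 1), with the group alone, for the 1290 genes with at least 1 in 3 or more libraries, with Benjamini-Hochberg adjustment over all of them, and was tested on simulated data. The members, the 10 pathway lists (180 genes) and the 7 marker lists were chosen with earlier results of these data known.

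Named were the 3 genes, RNF5, all listed genes of the ligand lists, up to 4 genes per other pathway list by adjusted p, up to 2 per marker list by mean, listed neighbours and the 3 most similar genes each, of which 1 for CD276 is not reported here. CHORDC1, DNAJB1, HSPB1 and HSPA1L in the heat shock list, and the genes of the MHC region, were named after their values were seen. Promoters came from RefSeq (GRCh38.p14); gene lengths and transcripts came from GENCODE 29, which is on GRCh38, not the authors' build, so no gene coordinates are given.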

Additional observations from a re-analysis of the deposited data

How the results depend on the processing

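BTN2A2, CD276 and MICB kept their direction under each of the 12 settings tried, which were pseudocount 0.1, knockdown values divided by the median offset, log2 ratio of means, the authors' value, the length trend removed, the replicate block and each library left out. Most of these could not reverse it. The groups did not overlap, so no pseudocount, ratio of means or left-out library could do so. The replicate block leaves the estimate unchanged in this balanced design. By the authors' value the genes had been listed. The kept direction is therefore not evidence of a change. With the length trend removed, a setting chosen after seeing the data, the log2 fold changes were 1.48, 0.57 and -1.04. Their level depends on the median added back, so they are not read as corrected for length. In the authors' deposited table MICB was at -1.07. The cause of these shifts was not tested. Leaving out 1 library gave 1.91 to 2.37 for BTN2A2, 0.998 to 1.42 for CD276 and -0.92 to -0.60 for MICB. Genes called changed numbered 1260, between 1076 and 1161 with 1 library left out, with 1272 under the replicate block, 654 (363 higher and 291 lower) with a minimum of 5, and 880 lower with no filter, because fewer or more genes were then fitted. Called genes of the pathway lists other than the 3 numbered 29, between 22 and 31 over all settings. No pairing by replicate number was evident, as deviations of same-numbered libraries correlated at -0.16, -0.07 and -0.08. These correlations cannot show how the libraries were prepared, and the replicate block was an alternative alone. Depth is unknown, so no counting interval is given.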

Other observations

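MICB and RNF5 lie in the MHC region of chromosome 6, and most listed genes there were lower in the knockdown. Between GABBR1 and TAPBP, bounds chosen after the values were seen, 14 of 143 protein-coding genes were listed (9.79%), against 1217 of 20056 in the whole RefSeq annotation (6.07%). The authors' deposited table listed 13 of the 14 as lower, RNF5 being one, against 721 lower and 496 higher among all listed protein-coding genes. COL11A2, a fibrillar collagen chain, fell to 2.06 ± 0.383 in the knockdown, against 8.36 ± 1.73 in the control, and TNXB, an extracellular tenascin, fell to 4.35 ± 1.25 in the knockdown, against 10.6 ± 1.97 in the control (SD, n = 3 each; limma adjusted p = 3.99e-05 and 0.000544). The complement gene C2 fell to 1.13 ± 0.336 in the knockdown, against 3.05 ± 1.36 in the control (SD, n = 3 each; limma adjusted p = 0.00542). HSPA1A, HSPA1B and HSPA1L, which belong to the heat shock list, are also among the 13. ATAT1, a tubulin acetyltransferase, was the one listed as higher, at 15.5 ± 1.86 in the knockdown and 5.72 ± 0.925 in the control (SD, n = 3 each; limma adjusted p = 0.000100). BTN2A2 lies on the same chromosome outside these bounds and was higher, with a log2 fold change of 2.07 in the authors' deposited table. Whether the position of these genes matters was not tested.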
